A study of Xenopus laevis x Xenopus muelleri with 6 samples.

Results

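The genes described here are 10 copies of 8 factors that form the gonad or take part in sex determination: sox9.S, dhh.L, dhh.S, gata4.S, cbx2.L, lhx9.L, emx2.L, fst.L, sox3.L and sox3.S. They were taken as every probe set of the deposited table whose only gene symbol is one of these names, which gave 10 of 11485 probe sets and 1 probe set for each gene copy. Expression was measured on 6 one-colour Affymetrix arrays loaded with testis RNA of sexually mature hybrids, 3 labelled normal and 3 labelled sex-reversed. In both groups the mother was Xenopus laevis from the Cape of South Africa and the father X. muelleri from Swaziland, and the animals were raised from eggs to adulthood. Replicates are labelled biological, though not as separate animals, and the p-values refer to the spread between samples, which may in part be technical. No source used here states which genetic sex these animals had, the agent or procedure behind the reversal, or an exact age. The comparison of the groups asks whether a testis obtained by sex reversal expresses these genes at the level of an ordinary hybrid testis.

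In vertebrates the gonad starts as a ridge of somatic cells that can become testis or ovary. In the mouse, Emx2, Lhx9, Gata4 and Cbx2 are needed to form or maintain this ridge. Sox9 then directs its supporting cells to become Sertoli cells, which secrete Dhh to the steroid-producing cells, while follistatin acts in the ovary. Many genes of X. laevis exist as an L and an S copy, inherited from its ancestral genomes. Of the genes here, sox3 and dhh were measured in both copies and the other 6 in a single copy, the second copy of each being not analysed here.

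The values are log2 expression values made with RMA, a method that corrects background, brings all arrays to the same distribution and combines the probes of a probe set. The median over all probe sets of an array lay between 5.25 and 5.31, the lower quartile between 3.66 and 3.71 and the lowest value between 1.93 and 2.09. Any pair of arrays correlated at 0.939 to 0.959 over the probe sets, and no pair of arrays held identical values. The presence of germ cells was checked with 32 listed markers, of which 12 genes were measured by 14 gene copies. The RNA helicase gene ddx4.L averaged 12.57 in normal and 12.49 in sex-reversed testis, and the RNA-binding protein gene dazl.L 11.92 and 11.93. In all 8 of the 14 copies lay above the array median on every array, beside 40.1% of all probe sets and 46.9% of those with 1 gene symbol. Markers of the same list on the other side were odf3, meig1.S and ropn1l.L, below the median in every testis. Sertoli cells were represented by 6 of 18 listed genes, and amh, wt1 and dmrt1 were not analysed here.

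Of the gonad genes, only sox9.S lay above the array median in all 6 testes, beside 40.1% of all probe sets. The Polycomb gene cbx2.L lay above it in 4 of 6 testes, and the remaining 8 members lay below it in every testis. Position on an array depends on the probes as well as on the RNA, and detection calls were not used, so a low value is not evidence that a gene was silent. For the same reason levels of different genes or copies are not ranked against each other. The probes were designed on X. laevis, and alleles from the X. muelleri father may bind them less well.

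**Figure D1:**
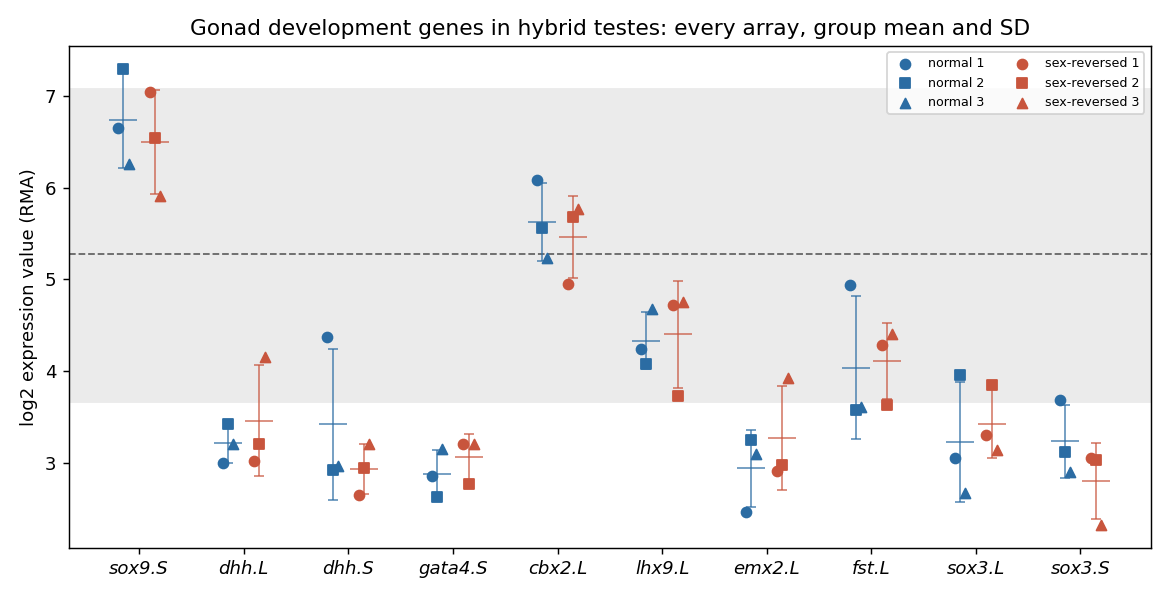
Log2 expression (vertical axis) of each of the 10 gene copies (horizontal axis) on every array, blue for normal and red for sex-reversed testis, with the group mean and SD as bars. The dashed line is the mean of the array medians and the grey band runs from the lower to the upper quartile; sox9.S lies above the line on all 6 arrays and the groups overlap for each of the 10 copies.

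No difference beyond the spread between replicates was detected for the gonad genes: 0 of 10 passed in limma at a threshold of 0.05 on the p adjusted over all 11485 probe sets, with n = 3 per group. Of all probe sets 0 passed, 0.00%, so the members' count is that of the background. At an unadjusted p under 0.05 the counts were 0 of 10 members and 508 of all probe sets, 4.42%. Mean values were higher in sex-reversed testis for 6 members and lower for 4, with log2 differences from -0.49 to 0.33, or 1.05-fold to 1.40-fold. The median difference was 0.07 over the members and 0.01 over all probe sets, where 5892 were higher and 5593 lower. In 0 of 10 members did the 3 values of one group all lie above those of the other, beside 9.63% of all probe sets.

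Sox9 is the transcription factor that starts and maintains Sertoli cells in mammals. The log2 values of sox9.S were 6.65, 7.30 and 6.26 in normal replicates 1 to 3 and 7.04, 6.55 and 5.91 in sex-reversed replicates 1 to 3. The highest value came from a normal and the lowest from a sex-reversed testis, and the groups overlapped. Normal testes averaged 6.74 ± 0.52 (SD, n = 3) and sex-reversed ones 6.50 ± 0.57, a difference of -0.24 (SE 0.37, limma adjusted p = 0.999). The 95% interval in linear terms ran from 0.462 to 1.55 times the normal level. On each array sox9.S lay above between 59.3% and 77.8% of all probe sets.

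Desert hedgehog is the signal that Sertoli cells send to steroid-producing and peritubular cells in the mouse. The log2 values of dhh.L were 3.0, 3.43 and 3.20 in normal testes and 3.02, 3.20 and 4.15 in sex-reversed testes, where replicate 3 was the only array above the lower quartile. Those of dhh.S were 4.37, 2.92 and 2.97 in normal and 2.65, 2.94 and 3.20 in sex-reversed testes, with normal replicate 1 as the high value. Each copy thus had 1 array apart from the other 5, and it was a different array. The difference was 0.25 (95% interval -0.52 to 1.02) for dhh.L and -0.49 (-1.45 to 0.47) for dhh.S. Without sex-reversed replicate 3 the value of dhh.L was -0.10, and without normal replicate 1 that of dhh.S was -0.01.

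Gata4 is a zinc finger factor of the somatic gonad. Its copy gata4.S read 2.85, 2.62 and 3.15 in normal and 3.20, 2.77 and 3.20 in sex-reversed testes, below the lower quartile on all 6 arrays, as were 14.4% of all probe sets. Values of the groups interleaved, and the spread was the smallest of the 10 members, 1.49-fold from the lowest to the highest testis. The difference was 0.19 (95% interval -0.38 to 0.75).

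Lhx9, a LIM homeobox factor, and Emx2, an empty spiracles homeobox factor, act in the early gonadal ridge of the mouse. The log2 values of lhx9.L were 4.24, 4.08 and 4.68 in normal and 4.72, 3.72 and 4.75 in sex-reversed testes, with 0.07 between the means (95% interval -0.72 to 0.85). The sex-reversed group held both its highest and its lowest value. For emx2.L the values were 2.46, 3.25 and 3.10 in normal and 2.91, 2.97 and 3.93 in sex-reversed testes. The difference of 0.33 (95% interval -0.49 to 1.16) depended on single arrays of either group, and was 0.005 when sex-reversed replicate 3 was left out and 0.095 when normal replicate 1 was.

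Cbx2 is a chromodomain subunit of Polycomb repressive complex, and its loss turns XY mouse gonads toward ovary. For cbx2.L the log2 values were 6.08, 5.56 and 5.23 in normal and 4.95, 5.67 and 5.76 in sex-reversed testes. Normal replicate 3 and sex-reversed replicate 1 were the 2 arrays on which it lay below the median. The groups overlapped, with means of 5.62 ± 0.43 (SD, n = 3) and 5.46 ± 0.44 and a difference of -0.16 (95% interval -0.91 to 0.59).

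Follistatin, a secreted protein that binds and neutralises activin, is a product of the early ovary in the mouse. Testis values of fst.L on the log2 scale were 4.93, 3.57 and 3.61 in normal and 4.28, 3.63 and 4.41 in sex-reversed testes. The highest value was thus in a normal testis, and the other 2 normal testes gave the lowest values. The difference was 0.07 (95% interval -0.90 to 1.04).

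Sox3 is a SoxB1 factor of neural tissue and, in the mouse, of spermatogonia, and the gene from which the mammalian testis-determining gene is thought to have arisen. The log2 values of sox3.L were 3.05, 3.95 and 2.67 in normal and 3.30, 3.85 and 3.14 in sex-reversed testes, with replicate 2 the highest of either group. Those of sox3.S were 3.68, 3.12 and 2.90 in normal and 3.05, 3.03 and 2.32 in sex-reversed testes. The low value of sox3.S in sex-reversed replicate 3 lay 0.27 above the lowest value of that array. The difference was 0.20 (95% interval -0.66 to 1.06) for sox3.L and -0.43 (-1.15 to 0.28) for sox3.S, which had the smallest unadjusted p of the members (0.199, limma).

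These genes were measured with little precision. The median SD within a group was 0.49 over the members and 0.34 over all probe sets, and the median half-width of the 95% interval 0.80 and 0.64. The interval lay within 2-fold in either direction for 3 members, gata4.S, cbx2.L and lhx9.L, and for 62.5% of all probe sets. Of these 3, gata4.S lay below the lower quartile on all 6 arrays, and whether its interval is narrow because of that low level was not tested. For the other 7 members the interval reached beyond 2-fold in at least 1 direction, so differences of that size are left unresolved by 3 arrays per group. With 1 array left out the sign of the difference changed for 6 of 10 members and held for dhh.S, gata4.S, emx2.L and sox3.S.

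**Figure D2:**
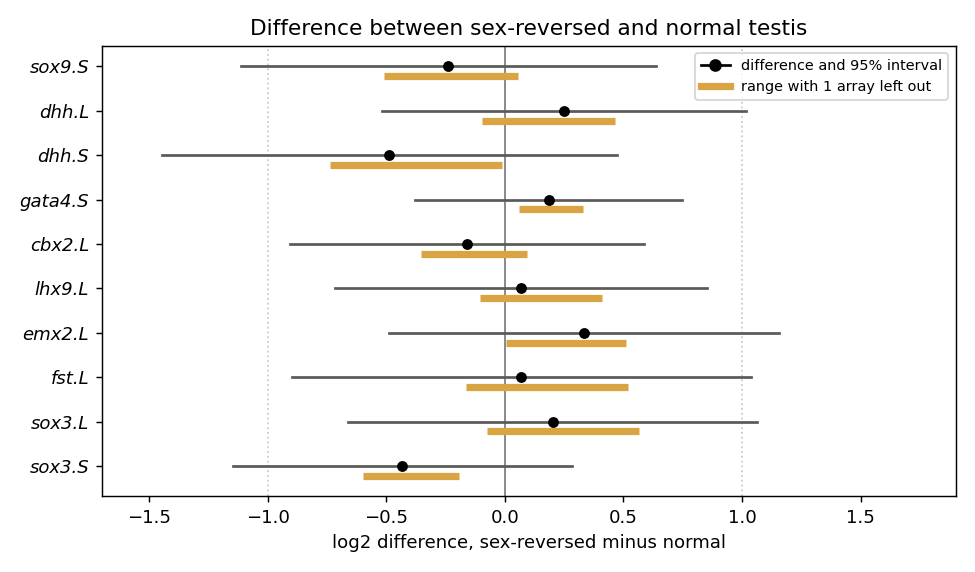
Log2 difference of sex-reversed minus normal testis (horizontal axis) for each gene copy (vertical axis), with its 95% interval from limma as a line and, in yellow, the range of the difference when each of the 6 arrays is left out in turn. All 10 intervals include 0; dotted lines mark 2-fold in either direction.

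The L and S copies of sox3 and of dhh were compared by their change, since the L minus S value on an array removes what both share while the level of either depends on its probes. Each of these copies lay below the lower quartile on most arrays, 5 of 6 for dhh.L, dhh.S and sox3.S and 4 of 6 for sox3.L. The L minus S values are therefore mostly differences between low readings. For sox3 the L minus S log2 values were -0.63, 0.84 and -0.23 in normal and 0.24, 0.82 and 0.81 in sex-reversed testes. For dhh they were -1.37, 0.51 and 0.24 in normal and 0.37, 0.26 and 0.95 in sex-reversed testes. In both genes normal replicate 1 was the lowest, and the groups overlapped, whereas they did not in 9.16% of all pairs. The mean of L minus S differed between sex-reversed and normal testis by 0.63 (95% interval -0.40 to 1.66) in sox3 and by 0.74 (-0.50 to 1.97) in dhh. Neither passed (limma adjusted p = 0.992 for both). With normal replicate 1 left out the change was 0.32 in sox3 and 0.15 in dhh. Over all 622 genes with both copies measured, 0 passed, 0.00%, and 22 had an unadjusted p under 0.05, 3.54%. A larger absolute change was found in 16.4% of the other pairs for sox3 and in 12.9% for dhh, where the other pairs were of all expression levels. The exact two-sided permutation test gave p = 0.4 for each gene, and with 3 arrays a group this test cannot go below 0.1. The copies deviated in the same direction from their own means on 4 of 6 arrays in either gene, and the median over all pairs was 3. Cross-hybridisation between the copies was not tested.

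**Figure D3:**
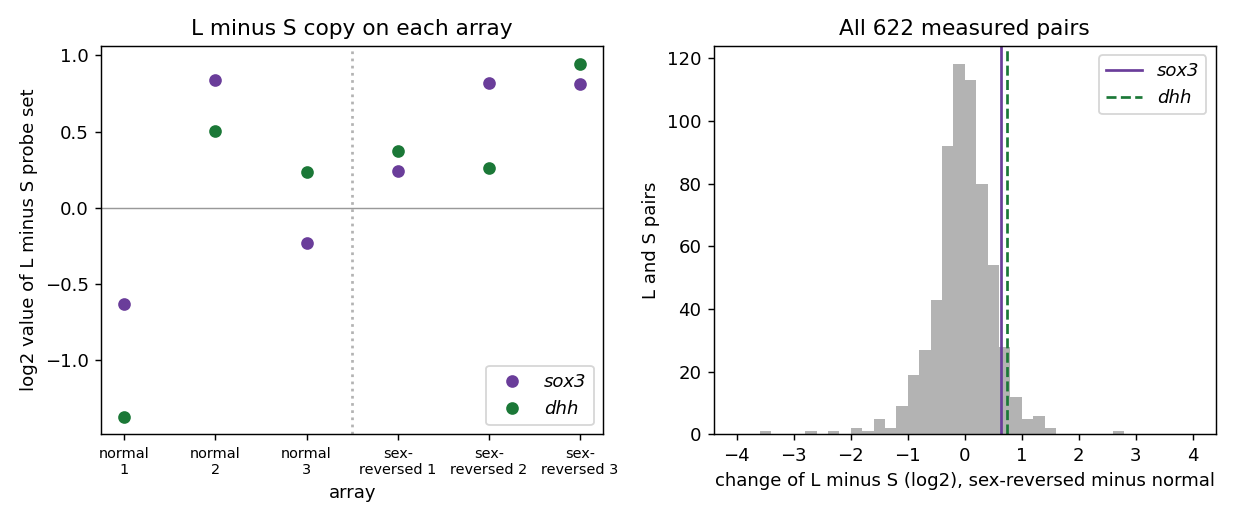
Left, the log2 value of the L minus the S probe set of sox3 and dhh (vertical axis) on each array (horizontal axis); right, the number of L and S pairs (vertical axis) by the change of L minus S between sex-reversed and normal testis (horizontal axis), with lines for sox3 (0.63) and dhh (0.74). The values of normal replicate 1 are the lowest of either gene, and both lines lie on the upper side of the distribution.

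Pathway lists built around the members gave no call in either direction in any of 7 lists, with 0.997 as the smallest adjusted p in limma. Each list also holds members, and its counts and medians include them. The hedgehog list holds 2 members, the activin and follistatin list 1 and the Sox list 3. The list of GATA factors and cofactors holds 1, that of LIM and EMX factors 2 and that of Polycomb genes 1. The list of gonad formation and sex determination, which holds the 10 members, had 35 copies of 28 measured genes out of 64 listed, 16 higher and 19 lower with a median difference of -0.05. The androgen synthesis gene cyp17a1.L differed by -1.76 (0.12 without sex-reversed replicate 3), and a further probe set of it by -0.64. For pdgfra.L, a receptor of platelet-derived growth factor, means differed by 0.95 and a further probe set of it by -0.06. Of 13 copies in the hedgehog list 4 were higher and 9 lower, with a median of -0.14. The transcription factors of the pathway gli2.S and gli3.L lay at -0.43 and -0.32, both below the array median in every testis. The other copy, gli2.L, went the other way, at 0.28, and also lay below the median in every testis. In the activin and follistatin list 12 of 20 copies were higher and 8 lower, with a median of 0.09. The activin receptor gene acvr2b.S lay at -0.68, and a further probe set of it at 0.21. The BMP receptor gene bmpr1a.L lay at -0.45, and further probe sets of it at -0.40 and 0.0039. Without normal replicate 2 the difference was -0.21 for both gli2.S and gli3.L and -0.38 for acvr2b.S. Groups did not overlap for 4 of the 20 activin and follistatin copies, the largest share of the 7 lists, beside the 9.63% of all probe sets. These copies went in both directions, acvr2b.S and bmpr1a.L being lower in sex-reversed testis and smad7.L (0.42) and smad1.S (0.25) higher. The counts were 3 of 35 in the gonad list, 1 of 13 in the hedgehog list and 3 of 19 among GATA factors and cofactors. They were 1 of 10 for LIM and EMX factors, 0 of 12 for Sox factors and 0 of 15 for Polycomb genes.

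Lists built around the transcription factor families also held 0 calls. Of 12 Sox copies 7 were higher and 5 lower, with a median of 0.07. The endothelial factor sox18.S lay at 0.73 (0.44 without sex-reversed replicate 2) and sox4.L at 0.29 (0.09 without normal replicate 1). Among 19 GATA factors and cofactors 12 were higher and 7 lower, with a median of 0.18. The erythroid factor gata1.L lay at -0.69 and, without normal replicate 1, at 0.23. Its values ran from 4.48 to 8.70 over the normal testes. The heart and mesoderm factor hand1.L lay at 0.69 (0.44 without sex-reversed replicate 1). Of 10 LIM and EMX homeobox copies 4 were higher and 6 lower, with a median of -0.23. The kidney factor lhx1.L lay at -0.76, and lhx2.L at 0.51 with a further probe set at -0.22. Without normal replicate 1 the value of lhx1.L was -0.16, and without sex-reversed replicate 3 that of lhx2.L was 0.23. Of 15 Polycomb copies 10 were higher and 5 lower, with a median of 0.04. Both copies of pcgf2, a subunit of the same type of complex as Cbx2, had higher means in sex-reversed testis and neither passed. The log2 values of pcgf2.L were 6.49, 4.91 and 5.45 in normal and 7.22, 6.43 and 5.78 in sex-reversed testes (difference 0.86, 95% interval -0.29 to 2.01; 0.48 without sex-reversed replicate 1). Those of pcgf2.S were 3.48, 4.13 and 3.25 in normal and 4.45, 3.98 and 4.63 in sex-reversed testes (difference 0.73, 95% interval 0.03 to 1.44), and the groups overlapped in both copies. Of the genes named from these lists, sox18.S, sox4.L, hand1.L, lhx2.L and pcgf2.S lay below the array median in every testis. The values of sox4.L lay below the lower quartile in every testis as well.

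The main axis of variation among the 6 testes did not separate the groups, and sox9.S lay along it. The first principal component of all probe sets held 27.0% of the variance between arrays. Scores on it fell from 38.1 in normal replicate 2 through 25.05 and 5.56 in sex-reversed replicates 1 and 2 to -14.7 in normal replicate 1, -23.8 in sex-reversed replicate 3 and -30.2 in normal replicate 3. The deviations of sox9.S from its own mean, in the same order of arrays, were 0.68, 0.42, -0.07, 0.03, -0.71 and -0.36. Of its variance 82.3% lay along this component, where the median over all probe sets was 17.0% and 2.73% of the others had a larger share. The share was 64.5% for sox3.L and between 2.19% and 26.0% for the other 8 members. These shares are a description over 6 arrays, and the component was computed with these genes included. The sign of the component is arbitrary and was set so that its scores correlate positively with sox9.S, the member with the largest share.

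Markers of testis cells were set beside sox9.S in the same order of arrays. The mean deviation of the 14 germ cell copies was -0.38 in normal replicate 2, -0.21 and -0.10 in sex-reversed replicates 1 and 2, 0.22 in normal replicate 1, 0.11 in sex-reversed replicate 3 and 0.36 in normal replicate 3. Its members did not move together. The helicase gene ddx25.L, at 3.85 in normal replicate 2 and 8.65 and 8.98 in normal replicates 1 and 3, carried much of this mean. Without it the same 6 values were -0.16, -0.16, -0.03, 0.12, -0.01 and 0.25, a list changed after the data were seen. The genes ddx4.L and dazl.L were highest in normal replicate 2, at 12.75 and 12.05, and lowest in normal replicate 3, at 12.35 and 11.69, while sox9.S was also highest in the first of these testes. Mean levels of the germ cell list overlapped between the groups, from 6.94 to 7.68 in normal and from 7.11 to 7.42 in sex-reversed testes. The copies of odf3, meig1.S and ropn1l.L lay below the array median in every testis.

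The list of 7 Sertoli cell copies deviated by 0.01, 0.04, -0.27, 0.24, 0.08 and -0.09 in the same order. Of these 7 copies 4 are members, sox9.S itself, dhh.L, dhh.S and gata4.S, so this mean is not separate from sox9.S. The other copies were gja1.L, sox10.L and fshr.L, and none of them passed in limma. Values of gja1.L were 8.87, 8.95 and 8.87 in normal and 8.38, 8.67 and 8.56 in sex-reversed testes. Its difference was -0.36, and it was the only copy of this list whose groups did not overlap. The differences of sox10.L and fshr.L were -0.14 and 0.10. The Leydig and steroid cell list, with 3 copies of 12 listed genes, deviated by -1.43 in sex-reversed replicate 3 and by 0.11 to 0.54 elsewhere. That low value came from cyp17a1.L, and without this gene the other 2 copies, srd5a1.S and fdx1.L, averaged 0.18 on that array. Of 12 peritubular smooth muscle marker copies, from 8 genes, 11 were higher in sex-reversed testis, beside 5892 of all 11485 probe sets. The median difference was 0.53, and 0 copies passed in limma. The mean log2 level of this list separated the groups, from 7.09 to 7.37 in normal and from 7.61 to 7.86 in sex-reversed testes. That of a list of 5 interrenal gland marker copies did so too, from 3.87 to 4.17 in normal and from 4.18 to 4.23 in sex-reversed testes. How often list means separate without a group difference was not tested. Singly, the groups did not overlap for only 1 of the 12 muscle marker copies, pdgfra.L, or 8.33%, beside 9.63% of all probe sets. A further probe set of pdgfra.L differed by -0.06, and further probe sets of the other muscle markers were not examined. The part of these cells in the values of the gonad genes was not tested, and in whole testis fewer cells of a type and less RNA per cell cannot be told apart.

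**Figure D4:**
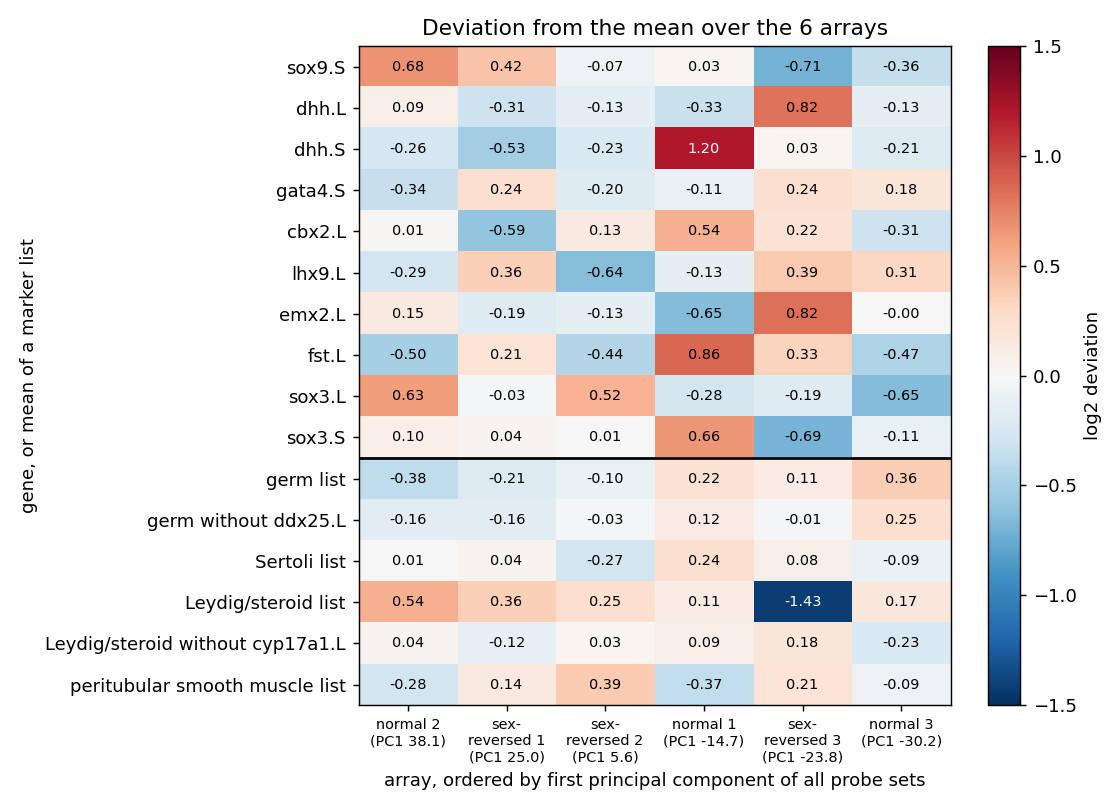
Log2 deviation of each gene copy, and of the mean of 4 marker lists below the line (germ and Leydig lists also without 1 copy), from its mean over the 6 arrays (rows; colour and number), with arrays in the order of the first principal component (columns, score in brackets). Values of sox9.S run from 0.68 at the left to -0.71 and -0.36 at the right, those of the germ cell list from -0.38 to 0.36, and from -0.16 to 0.25 without ddx25.L, and normal and sex-reversed arrays are interspersed along the axis.

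The genes with a pattern nearest to that of sox9.S over the 6 arrays were top1.1.L, a DNA topoisomerase I gene, habp4.S, a hyaluronan- and RNA-binding protein gene, and idh3a.S, a subunit of mitochondrial isocitrate dehydrogenase. The root mean square difference of their deviations from those of sox9.S was 0.069, 0.11 and 0.13, where the median over 6788 candidate probe sets was 0.57. They are the nearest 3 of many candidates over few arrays. Their own differences between the groups were -0.34, -0.09 and -0.27, beside -0.24 for sox9.S. The choice used the 6 deviations of sox9.S, which contain its group difference, so similar differences follow largely from the choice. Without sex-reversed replicate 3 the differences of these 3 genes were -0.03, 0.16 and 0.11, beside 0.056 for sox9.S.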

How the data were processed

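Biotin-labelled RNA was measured on 1-colour Affymetrix arrays (labels' protocols). The deposited table holds log2 values from RMA, per the submitters' processing notes; no source used here gives its version, options or chip definition. The log2 scale was read from the range of the values. RMA sets the arrays to a shared distribution, which removes a shift common to most probe sets. The table holds 0 columns of other samples. No genome was used, and neither labels nor table give a hybridisation or scan batch.

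Gene symbols came from the platform annotation: 6798 probe sets had 1 symbol, 110 several and 4577 none, and only the first kind was named. Each probe set was fitted with limma 3.58.1 in R 4.3.3 (lmFit, eBayes), sex-reversed minus normal, two-sided, without a filter, Benjamini-Hochberg adjusted over the 11485 probe sets, with a threshold of 0.05 and 95% intervals. The same fit was run on L minus S values of 622 pairs. For lists and pairs the probe set with the highest mean stood for a gene copy. Lists are described by counts and medians. The text names every member and the 3 genes nearest to sox9.S. From each pathway list it names the 2 genes outside the members with the largest absolute difference. Markers of germ cells and other testis cells are named too, and gli2.L, pcgf2 and marker copies in more detail after their values were seen. Lists of oocyte, kidney, blood and fat body markers were counted as well and are not described. Members and lists were chosen with earlier results of these data known. The fits were checked on simulated data with independent noise. Recovery was required only for changes of 3 log2 units, so recovery of smaller differences, such as those of the members, was not part of the requirement. The number of arrays limits the precision. Alternatives covered the replicate block, scaling, filters, the variance model, array weights, cross-hybridising probe sets, the threshold, the reference level and each array left out. Samples with the same replicate number were checked for pairing by the correlation of their deviations from the group means.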

Additional observations from a re-analysis of the deposited data

How the results depend on the processing

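No member passed under any of the 16 other fits run or at an adjusted p of 0.1. The filters removed most members before the fit, so those could not pass there. The filter at the median kept only sox9.S and cbx2.L, and that at the 25th percentile also lhx9.L and fst.L. Calls over all probe sets, 0 in the fit reported, were 2 with median centring and with array weights, 1 with a further quantile normalization, with a filter at the median and without cross-hybridising probe sets, 2 at an adjusted p of 0.1, and 0 to 6 with 1 array left out, the 6 being without sex-reversed replicate 3. None of these calls was a member. With array weights the differences of lhx9.L and fst.L changed sign to -0.039 and -0.041; the replicate block, scalings, filters and variance models kept the sign of each member they held. With 1 array left out the difference ran from -0.51 to 0.056 for sox9.S, -0.10 to 0.47 for dhh.L, -0.74 to -0.01 for dhh.S, 0.06 to 0.33 for gata4.S, -0.35 to 0.10 for cbx2.L, -0.11 to 0.41 for lhx9.L, 0.005 to 0.51 for emx2.L, -0.16 to 0.52 for fst.L, -0.075 to 0.57 for sox3.L and -0.60 to -0.19 for sox3.S. The change of L minus S ran from 0.32 to 1.06 for sox3 and from 0.15 to 1.09 for dhh. The count of members above a reference level on all arrays, 1 for the array median, was 0 for the 75th percentile, and 2 members lay above the median on at least 1 array or by the mean over arrays, and the count above the median stayed 1 with any 1 array left out. Same-numbered samples correlated by -0.007, -0.02 and 0.14 in their deviations, so the numbers were not taken to pair the samples; the replicate block gave 0 calls and 524 unadjusted p-values under 0.05. The causes of these changes were not tested.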

Other observations

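Many values of the deposited table are shared exactly between probe sets of the same array. On an array 44.8% to 47.4% of values occurred in more than 1 probe set, and the largest group of equal values held 49 to 68 probe sets. Of the 60 values of the gonad genes 44 were shared in this way. For dhh.L, gata4.S, cbx2.L, lhx9.L, emx2.L, fst.L and sox3.L the value was shared on all 6 arrays, as it was for 28.3% of all probe sets and for 39.4% of those with a mean below the median. The value of dhh.L in sex-reversed replicate 2 occurred in 64 other probe sets, and that of gata4.S was the same number, 3.20, in sex-reversed replicates 1 and 3. All 6 values of sox9.S were its own, and dhh.S and sox3.S each shared 1 value with 1 other probe set. Among probe sets of equal value on an array the order is therefore not defined by the table. The step that produced the equal values was not tested.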
